A study of Arabidopsis thaliana with 12 samples.

Results

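The 10 genes described here are core components of the *Arabidopsis* circadian clock, namely LHY (AT1G01060), CCA1 (AT2G46830), PRR9 (AT2G46790), PRR7 (AT5G02810), PRR5 (AT5G24470), GI (AT1G22770), TOC1 (AT5G61380), ELF3 (AT2G25930), ELF4 (AT2G40080) and LUX (AT3G46640). They were named by gene identifier, though with earlier results of these data known. All 10 were found among the 23151 genes listed in the mature-leaf files and in the young-shoot files. Total RNA was sequenced from plants grown at 22 °C under 16 h of light and 8 h of dark. Wild type Col-0 (n = 3) and the quadruple mutant *ddcc* (*drm1 drm2 cmt2 cmt3*, n = 3), which lacks the methyltransferases of non-CG sites, were sampled at 5 weeks and are labelled as mature leaves, where the study's methods give the whole aerial part without the inflorescence. Libraries labelled as the mutant *met1-3* (n = 3), in the gene for the CG methyltransferase MET1, came from young shoots at 2 weeks. All lines are of the Columbia ecotype, and no hour of harvest was found in the labels or in the methods. The young shoots differ from the leaves in genotype, age and tissue at once and come from a table normalised apart, so their values are described without a test, and these causes cannot be told apart. The labels do not say whether replicates came from separate plants, so p-values measure the spread between these samples only.

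The plant clock is a circuit of repressors that follow each other through the day. The MYB proteins CCA1 and LHY accumulate around dawn and hold down genes of the evening. The pseudo-response regulators PRR9, PRR7, PRR5 and TOC1 are then made in that order and repress CCA1 and LHY. In the evening ELF3, ELF4 and LUX form the evening complex, which represses among others PRR9, and GI stabilises ZTL, the F-box protein that targets TOC1. Because each gene peaks at its own hour, the ratio of morning to evening transcripts in leaves moves with the hour at which they are frozen.

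A well known route between morning and evening genes is DNA sequence. CCA1 and LHY bind the evening element (AAAATATCT) and the related CCA1-binding site (AAAAATCT), and the G-box (CACGTG) is bound by bHLH and bZIP factors. These 3 motifs were searched for on both strands in the 300 bases before the annotated gene start, in the TAIR10.1 genome with RefSeq annotation. No matches overlapped each other in the promoters shown. The sequences of LHY and CCA1, the most abundant members, of the evening-element genes PRR5, TOC1 and LUX, and of GRP7, the clock-associated gene called between the leaf groups, are shown 5′ to 3′ on the strand of the gene, with every match on either strand in capitals. They lie at chr1:37872-38171 (minus strand), chr2:19245291-19245590 (plus), chr5:8358547-8358846 (minus), chr5:24674663-24674962 (plus), chr3:17182742-17183041 (plus) and chr2:9266558-9266857 (minus).
LHY: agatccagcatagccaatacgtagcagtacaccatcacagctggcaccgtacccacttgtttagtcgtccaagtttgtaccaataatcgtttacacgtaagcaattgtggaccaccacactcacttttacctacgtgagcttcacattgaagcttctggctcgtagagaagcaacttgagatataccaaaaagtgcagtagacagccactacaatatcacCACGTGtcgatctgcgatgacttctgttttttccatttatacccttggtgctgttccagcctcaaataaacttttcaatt
CCA1: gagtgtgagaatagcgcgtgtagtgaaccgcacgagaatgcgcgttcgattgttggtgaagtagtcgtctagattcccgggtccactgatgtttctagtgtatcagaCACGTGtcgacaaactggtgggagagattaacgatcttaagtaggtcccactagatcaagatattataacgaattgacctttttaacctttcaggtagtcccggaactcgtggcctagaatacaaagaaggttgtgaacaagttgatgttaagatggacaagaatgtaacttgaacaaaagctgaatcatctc
PRR5: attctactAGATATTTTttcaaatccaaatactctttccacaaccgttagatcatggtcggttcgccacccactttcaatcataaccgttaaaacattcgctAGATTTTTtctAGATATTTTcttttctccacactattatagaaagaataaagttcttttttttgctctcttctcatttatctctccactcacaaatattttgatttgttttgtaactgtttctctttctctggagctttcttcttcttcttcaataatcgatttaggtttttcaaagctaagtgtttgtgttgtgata
TOC1: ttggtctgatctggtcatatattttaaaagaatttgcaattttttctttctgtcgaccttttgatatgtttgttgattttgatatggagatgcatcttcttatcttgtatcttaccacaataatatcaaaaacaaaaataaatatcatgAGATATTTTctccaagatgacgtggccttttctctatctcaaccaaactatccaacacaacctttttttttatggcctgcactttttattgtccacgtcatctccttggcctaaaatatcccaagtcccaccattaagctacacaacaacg
LUX: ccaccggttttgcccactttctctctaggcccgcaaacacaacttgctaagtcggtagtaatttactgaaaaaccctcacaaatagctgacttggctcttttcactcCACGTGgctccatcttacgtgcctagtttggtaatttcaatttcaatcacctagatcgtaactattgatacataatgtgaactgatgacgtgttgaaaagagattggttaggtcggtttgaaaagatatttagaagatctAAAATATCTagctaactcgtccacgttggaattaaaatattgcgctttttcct
GRP7: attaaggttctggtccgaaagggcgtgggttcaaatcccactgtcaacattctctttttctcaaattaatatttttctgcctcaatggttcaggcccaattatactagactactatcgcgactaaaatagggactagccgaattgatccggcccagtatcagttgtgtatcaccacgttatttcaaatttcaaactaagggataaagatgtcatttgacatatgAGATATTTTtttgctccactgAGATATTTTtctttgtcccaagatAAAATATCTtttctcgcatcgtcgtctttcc

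An evening element was found in 3 of the 10 core promoters (PRR5, TOC1 and LUX), compared with 2.79% of the 27443 protein-coding promoters of the same length. PRR5 had 2 of them, beginning at positions -292 and -187 from the gene start, and it also held the only CCA1-binding site among the members, a motif found in 7.94% of all promoters. TOC1 had its evening element at -151 and LUX had one at -53. The G-box was found in 5 of the 10 (LHY, CCA1, PRR9, PRR7 and LUX) and in 7.09% of all promoters. The 4 morning members thus all carried a G-box in this window, whereas GI, ELF3 and ELF4 carried no match to any of these letters in it. Of 35 further clock-associated genes, 8 held an evening element, and GRP7 had 3, at -76, -55 and -31. A G-box was found in 7 of the 35 (RVE1, RVE2, LNK3, CDF2, PIF5, BOA and TIC). Of the 15 morning genes on that list, only RVE1, RVE2, LNK3 and CDF2 held one. The matches are descriptions of sequence, and binding was not measured here.

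**Figure D1:**
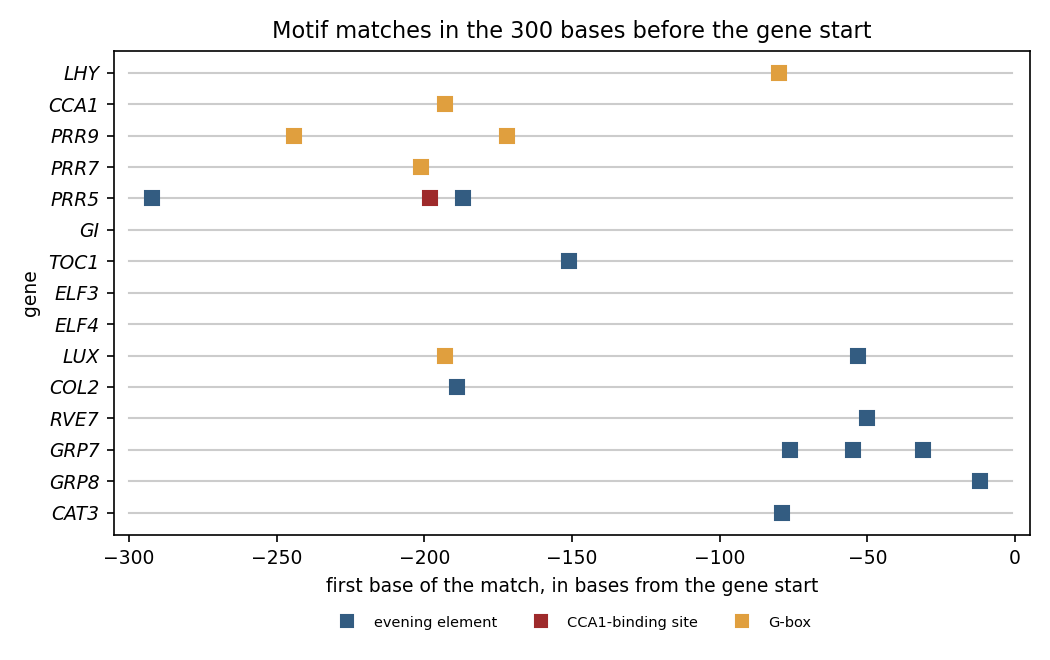
Position of each match to the evening element, the CCA1-binding site and the G-box, in bases from the gene start, for the 10 core genes and 5 clock-associated genes. G-boxes lie in the 4 core morning genes and LUX, and evening elements lie in PRR5, TOC1, LUX and the lower 5 genes, with 3 in GRP7. The lower 5 all come from the 8 associated genes that hold an evening element, and COL2 and RVE7 among them are morning-phased.

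Libraries held 10105057 to 13989374 reads on genes, of which 56.7% to 65.8% lay on plastid genes, leaving 3938275 to 5310477 nuclear reads. The plastid share was 57.8% to 59.6% in Col-0 and 64.4% to 65.8% in *ddcc*. As a check of the labels, DRM2 fell in *ddcc* (log2 fold change -1.56, limma with Benjamini-Hochberg adjusted p = 0.017), CMT2 was higher (0.58, adjusted p = 0.015) and CMT3 did not pass the test (-0.35, adjusted p = 0.21), and DRM1 had at most 1 read in any leaf library. MET1 was not low in the shoots labelled *met1-3*, with 292, 260 and 447 reads against 40 to 70 in Col-0 leaves, or 13.9 ± 2.46 against 2.35 ± 0.47 reads per kb of exon per 1000000 nuclear reads (SD, n = 3). Without young wild-type shoots the effects of allele, age and tissue on MET1 cannot be told apart. Its level therefore cannot decide for or against that label, and these libraries are named by their label. The photosynthesis genes RBCS1A, LHCB1.1 and LHCB1.3, which mark green leaf tissue, were abundant in all libraries and were called higher in *ddcc* (log2 fold change 2.09, 2.49 and 2.62, limma adjusted p = 5.4e-06, 9.2e-06 and 1.6e-05), although the LHCB1 copies are nearly identical and share reads. The flower markers AP1, AP3, PI, AG and SEP3 had at most 17 reads in any library, the meristem gene STM had 9 to 77, and the root gene COBL9 had at most 2 in the leaves.

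The dawn genes stood far above the other members in every library. Levels are compared between genes as reads per kb of exon per 1000000 nuclear reads. In Col-0, LHY was at 284 ± 22.7 (SD, n = 3) and CCA1 at 235 ± 17.6, followed by PRR7 at 41.0 ± 7.29, GI at 16.9 ± 2.58, PRR9 at 16.1 ± 2.33 and TOC1 at 9.25 ± 1.47. The members of the evening complex were lower, with ELF3 at 4.87 ± 1.13, ELF4 at 3.39 ± 1.98 and LUX at 1.28 ± 0.41, and PRR5 was at 1.22 ± 0.16. The neighbours GI and PRR9, ELF3 and ELF4, ELF4 and LUX, and LUX and PRR5 overlapped in range, while the other steps of this order separated all 3 libraries.

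The order was nearly the same in *ddcc*. LHY was at 262 ± 4.68, CCA1 at 190 ± 11.8, PRR7 at 32.4 ± 3.55, GI at 11.8 ± 1.42, PRR9 at 11.7 ± 1.77 and TOC1 at 7.99 ± 1.53 reads per kb per 1000000. ELF3 followed at 2.78 ± 0.23, ELF4 at 1.83 ± 0.35, PRR5 at 0.713 ± 0.104 and LUX at 0.582 ± 0.244, so that only the last 2 places were exchanged, between genes whose ranges overlapped in both groups. All leaf libraries of both genotypes therefore showed the profile of LHY and CCA1 high and PRR5 and the evening complex low. The shoots labelled *met1-3* shared this profile, with LHY at 307 ± 9.30, CCA1 at 219 ± 14.7 and PRR9 at 16.0 ± 4.04. PRR7 was at 10.3 ± 1.84 there, below the level of all 6 leaf libraries (29.1 to 47.4), and ELF3 was at 7.87 ± 0.94, above all 6 (2.63 to 5.85).

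**Figure D2:**
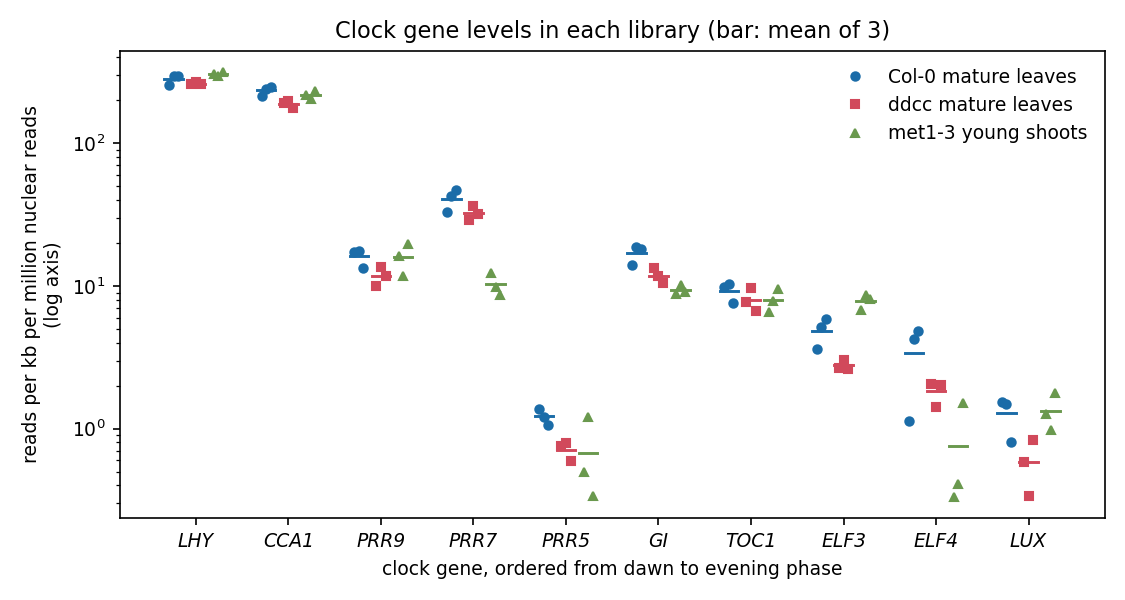
Reads per kb of exon per 1000000 nuclear reads (log axis) of the 10 core clock genes in each of the 9 libraries, with a bar at each group mean. LHY and CCA1 lie above 176.5 in all libraries and PRR5 at 1.38 or lower, while PRR7 in the shoots labelled *met1-3* lies below, and ELF3 above, all leaf libraries.

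The comparison of *ddcc* with Col-0 leaves asks whether the loss of non-CG methylation goes with a change in clock transcripts. No core gene was called at an adjusted p under 0.01 with an absolute log2 fold change over 1, where 5.06% of the 17005 tested genes were called (3.9% higher and 1.16% lower in *ddcc*, 663 and 198 genes). With libraries scaled to total nuclear reads the split of all calls was 599 higher and 300 lower, against the main 663 and 198. PRR5 and ELF4 had too few reads to be tested. Of the 8 tested members, 1 passed an adjusted p under 0.05 (ELF3, lower), against 21.4% of all tested genes, 8.32% with *ddcc* lower. An unadjusted p under 0.05 was found in 5, all lower, against 36.1% of all tested genes, 16.6% with *ddcc* lower. No member was called under limma-voom on the recovered reads either. In 3 of the 8 (CCA1, GI and ELF3, all lower in *ddcc*) the libraries of the groups did not overlap, against 40.6% of all tested genes, 19.4% with *ddcc* lower. All 8 fold changes were below 0, with a median of -0.32, whereas 52.4% of all tested genes were below 0 and their median was -0.03. LUX, among the 8, met the low filter through its Col-0 libraries, which favoured a fall. In bulk tissue, fewer cells of a type and less RNA per cell cannot be told apart.

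Of the dawn genes, LHY, a MYB repressor, was the most even member. It had 3985, 4363 and 4190 normalised reads (reads over the size factor of their library) in Col-0 and 4191, 4071 and 3960 in *ddcc*. The groups overlapped, and the log2 fold change was -0.04 (SE 0.08, 95% interval -0.21 to 0.14, limma adjusted p = 0.77). CCA1, its close relative, had 2646, 2832 and 2780 normalised reads in Col-0 and 2484, 2414 and 2134 in *ddcc*. All *ddcc* libraries were below all Col-0 libraries, the separation named above. The log2 fold change of CCA1 was -0.23 (SE 0.09, interval -0.43 to -0.04) and did not pass the test (limma adjusted p = 0.080).

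None of the pseudo-response regulators tested here passed. PRR9, the earliest of them, had 167, 163 and 118 normalised reads in Col-0 and 101, 128 and 112 in *ddcc*, with overlapping groups and a log2 fold change of -0.38 (SE 0.17, limma adjusted p = 0.13). PRR7, which follows it, had 483, 593 and 629 in Col-0 and 445, 519 and 458 in *ddcc*, again overlapping (-0.26, SE 0.12, adjusted p = 0.15). PRR5, the afternoon member, had only 10, 10 and 9 reads in Col-0 and 5, 6 and 4 in *ddcc*. Its 3 *ddcc* libraries were the lower ones, but at this depth no test was made. TOC1, the member of dusk, had 126, 124 and 87.2 normalised reads in Col-0 and 102, 121 and 82.9 in *ddcc*. Its groups overlapped and the interval of its log2 fold change reached from -0.57 to 0.29 (estimate -0.14, SE 0.19, limma adjusted p = 0.64), so a change of moderate size in either direction was not detectable.

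GI, a large plant-specific protein that joins the clock to flowering, had 271.5, 346 and 321 normalised reads in Col-0 and 271.0, 223 and 200.1 in *ddcc*. The groups did not overlap, though the lowest Col-0 and the highest *ddcc* library differed by less than 1 normalised read. Its log2 fold change was -0.44 (SE 0.14, interval -0.75 to -0.12) and stayed just short of the test (limma adjusted p = 0.054, range over the alternatives 0.022 to 0.18).

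The evening complex held the member that passed the test and the one with the greatest fitted change. ELF3, its scaffold, had 45.1, 60.9 and 66.0 normalised reads in Col-0 and 34.8, 37.2 and 32.1 in *ddcc*, and all *ddcc* libraries were lower. It fell with a log2 fold change of -0.69 (SE 0.20, interval -1.15 to -0.24, limma adjusted p = 0.038, range over the alternatives 0.017 to 0.13). ELF3 no longer passed when Col-0 replicate 2, Col-0 replicate 3 or any of the *ddcc* replicates was left out. Its log2 fold changes were then between -0.74 and -0.58. Nor did ELF3 pass without the low filter (limma adjusted p = 0.053). LUX, the DNA-binding subunit, had 27.3, 25.2 and 13.0 normalised reads in Col-0 and 10.8, 5.88 and 14.4 in *ddcc*. The groups overlapped through the lowest Col-0 library, and the log2 fold change of -1.02 (SE 0.41) did not pass (limma adjusted p = 0.10). LUX met the low filter through Col-0, with 16 to 29 reads, while *ddcc* had 6 to 13, so the filter favoured a fall. ELF4, the small subunit, had 3, 13 and 15 reads in Col-0 and 5, 4 and 5 in *ddcc*, overlapping and too low to be tested. Genes on the opposite strand overlap ELF3 (AT2G08135 and AT2G25940) and LUX (AT3G46650), and since the strand setting of the counting was not found, reads from these partners cannot be told apart. The same limit holds for CAT2, COL2, ASN1, DIN10 and LHCB1.3, which also overlap opposite-strand genes.

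**Figure D3:**
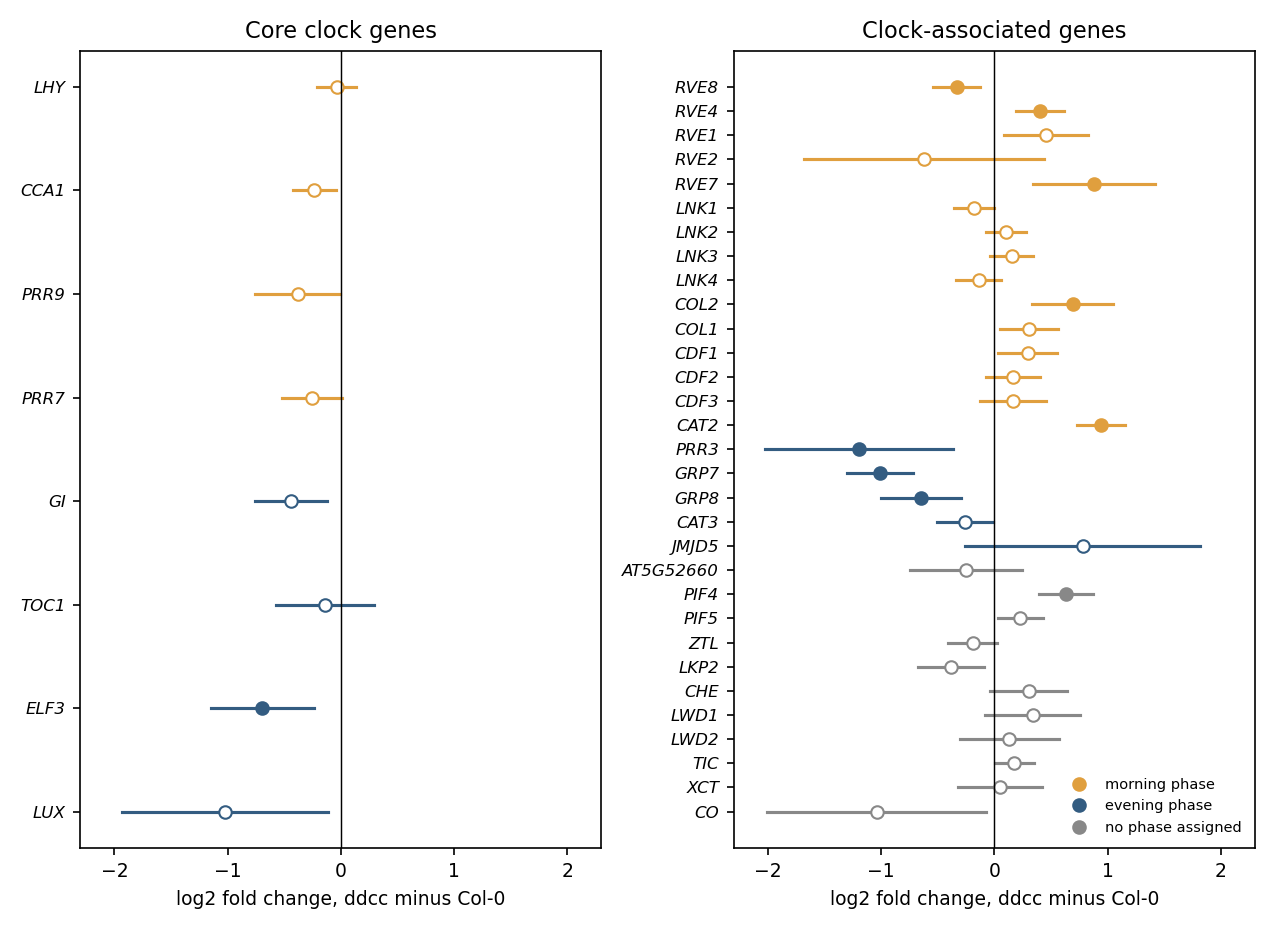
Log2 fold change between *ddcc* and Col-0 leaves with its 95% interval (limma, 3 libraries a group) for the 8 tested core genes and the 31 tested clock-associated genes, coloured by phase, with filled points at an adjusted p under 0.05. All 8 core genes lie below 0 and only ELF3 is filled, and among the associated genes 5 filled points lie above 0 and 4 below. LUX and PRR3 met the low filter through Col-0, which favoured a fall.

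To set morning against evening within a library, the mean log2 level per kb of the 5 evening genes (GI, TOC1, ELF3, ELF4 and LUX) was taken from that of the 4 morning genes (LHY, CCA1, PRR9 and PRR7). Library scaling largely drops out of this difference, except in genes of few reads such as ELF4, where the pseudocount of 1 weighs in. With a pseudocount of 0.1 the means of 4.01, 4.35 and 3.93 in Col-0, *ddcc* and the shoots became 4.07, 4.43 and 4.06. It was 4.18, 3.86 and 4.002 in Col-0, 4.20, 4.57 and 4.28 in *ddcc* and 4.24, 3.89 and 3.65 in the shoots labelled *met1-3*. Morning genes were thus on average 12.6-fold to 23.7-fold above evening genes in all 9 libraries. Every *ddcc* value was above every Col-0 value, by 0.34 on average, with the nearest pair 4.18 and 4.20, while those shoots overlapped Col-0. Both parts of the difference were lower in *ddcc*. The morning mean was 8.16 to 8.31 in *ddcc* and 8.41 to 8.53 in Col-0. The evening mean was 3.75 to 3.99 in *ddcc* and 4.23 to 4.67 in Col-0, with ELF4 and LUX on few reads. With only LHY and CCA1 set against GI, TOC1, ELF4 and LUX the mean differences were 5.67 in Col-0, 6.06 in *ddcc* and 6.37 in the shoots labelled *met1-3*, so the place of the shoots depended on which genes entered. With 3 libraries a group no exact permutation test can go below 0.10, and none was made.

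Single pairs were also compared, as ratios of levels per kb. LHY over TOC1 was 31.4 ± 7.08 (SD, n = 3) in Col-0, 33.6 ± 5.73 in *ddcc* and 39.2 ± 6.97 in the shoots labelled *met1-3*, with overlapping ranges. LHY over GI was 16.9 ± 1.37 in Col-0 and 22.4 ± 2.75 in *ddcc*, and 33.0 ± 3.05 in the shoots labelled *met1-3*, so the 3 groups did not overlap for this pair. CCA1 gave other results, since CCA1 over GI overlapped between the leaf groups (14.01 ± 1.27 in Col-0 and 16.1 ± 1.44 in *ddcc*) and CCA1 over TOC1 was lower in *ddcc* on average (26.0 ± 5.997 and 24.1 ± 3.07), also overlapping. PRR7 over PRR9, a ratio within the day, was 2.61 ± 0.82 in Col-0 and 2.77 ± 0.13 in *ddcc* but 0.675 ± 0.210 in the shoots labelled *met1-3*. Col-0 and *ddcc* leaves thus both had dawn transcripts far above those of the evening and differed from each other by small steps, while the young shoots had a lower PRR7. Whether the hour of harvest differed was not tested, since no series of times was sampled.

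In the shoots labelled *met1-3* each member was read against the range of the leaf libraries, in reads per kb per 1000000 nuclear reads. LHY was at 306, 298 and 317 and CCA1 at 217, 205.0 and 234, CCA1 within the range of the leaves (177 to 249) and LHY at or just above its own (258 to 298). PRR9 was at 16.3, 11.7 and 19.8, overlapping both leaf groups. PRR7 stood apart at 12.3, 9.82 and 8.68, with 192, 125 and 149 reads behind these values. GI was at 8.79, 10.09 and 9.10, below the lowest leaf library (10.5, in *ddcc*), while TOC1 at 6.55, 7.87 and 9.59 had 1 library just below the lowest leaf library (6.65, in *ddcc*) and the others among the leaves. Within the evening complex the subunits went apart. ELF3 was at 6.84, 8.68 and 8.08, above every leaf library, LUX at 1.27, 0.973 and 1.78 was at the level of Col-0, and ELF4 had only 1, 1 and 5 reads. PRR5 was as low as in the leaves, with 4, 8 and 3 reads.

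Of 35 further clock-associated genes, 31 could be tested and 1 was called in *ddcc* (GRP7, lower, where 1.16% of all tested genes were called lower). This list and its phases were also chosen with earlier results of these data known. At an adjusted p under 0.05, 5 rose and 4 fell, against 13% and 8.32% of all tested genes, and the median log2 fold change was 0.15. The libraries did not overlap in 10 of the 31 with *ddcc* higher and in 9 with *ddcc* lower, against 21.1% and 19.4% of all tested genes. By phase, of 15 tested morning genes, 4 rose (RVE4, RVE7, COL2 and CAT2) and 1 fell (RVE8), with a median of 0.17. Of 5 tested evening genes, 3 fell (PRR3, GRP7 and GRP8) and 0 rose, with a median of -0.65. JMJD5 among them was at 0.78 without passing (limma adjusted p = 0.25), on 4 to 18 reads in Col-0 and 11 to 16 in *ddcc*. PRR3 passed the low filter only through its Col-0 libraries, with 13 to 18 reads against 4 to 7 in *ddcc*. Its fall was thus in part fixed by the filter.

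GRP7, a glycine-rich RNA-binding protein under clock control that represses its own transcript and that of its relative GRP8, had 416, 454 and 373 normalised reads in Col-0 and 223, 220.4 and 175 in *ddcc*. The groups were well apart, and the log2 fold change was -1.01 (SE 0.13, limma adjusted p = 0.00061). The fold change came to -0.94 without Col-0 replicate 2 and to -0.89 without *ddcc* replicate 3, which ended the call by its fold threshold but not the adjusted p under 0.05. GRP8 fell alongside, from 635, 699 and 623 normalised reads to 458, 499.7 and 314 (-0.65, SE 0.16, adjusted p = 0.018). PRR3, a relative of TOC1, had 13, 17 and 18 reads in Col-0 and 7, 5 and 4 in *ddcc* (-1.20, SE 0.37, adjusted p = 0.046), a difference on few reads. In the shoots labelled *met1-3* PRR3 had 6, 1 and 3 reads, and FKF1, the blue-light F-box receptor of the afternoon, had 0 reads in all 3, where the leaf libraries had 0 or 1. A count of 0 allows up to 3 reads in each library, or 0.565 to 0.762 reads per 1000000 nuclear reads, counting error only.

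Among the morning-phased genes, CAT2, a catalase of photosynthetic tissue, rose from 8992, 8895 and 9597 normalised reads in Col-0 to 19083, 18100 and 15759 in *ddcc* (log2 fold change 0.94, SE 0.10, limma adjusted p = 0.00015). COL2, a B-box protein expressed around dawn, rose from 346, 484 and 506 to 780, 769 and 598 (0.69, SE 0.16, adjusted p = 0.014). The MYB-like genes of the REVEILLE family did not move one way. RVE4 rose (0.40, SE 0.09, adjusted p = 0.015) and RVE7 rose (0.88, SE 0.24, adjusted p = 0.028), while RVE8, like RVE4 an activator of evening genes, fell from 701, 797 and 753 to 625, 608 and 556 normalised reads (-0.33, SE 0.09, adjusted p = 0.032). PIF4, a growth-promoting bHLH factor that the evening complex represses, rose from 557, 449 and 462 to 788, 771 and 709.9 normalised reads (0.63, SE 0.11, adjusted p = 0.0029). PIF4 was at 71.7, 47.6 and 64.4 normalised reads in the shoots labelled *met1-3*, in their own table. Of the associated genes past the adjusted p of 0.05, CAT2, PIF4 and GRP7 stayed under it in all 13 alternatives. The others rose above it when some single libraries were left out, GRP8 (highest adjusted p 0.077) for Col-0 replicate 2, COL2 (0.064) for *ddcc* replicates 1 and 2, RVE4 (0.069) for Col-0 replicate 2 and *ddcc* replicate 2 and also with scaling to total nuclear reads, RVE7 (0.11) for Col-0 replicates 2 and 3 and *ddcc* replicates 1 and 2, RVE8 (0.13) for replicates 2 and 3 of both groups, and PRR3 (0.15) for all but *ddcc* replicate 1 and also without a low filter and under a replicate block.

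The morning minus evening difference over 15 morning and 9 evening associated genes was 4.06, 3.95 and 4.10 in Col-0, 4.65, 4.67 and 4.75 in *ddcc* and 5.27, 5.34 and 5.15 in the shoots labelled *met1-3*. The 3 groups did not overlap, and *ddcc* lay above Col-0 by 0.65. Of the 9 evening genes, 4 (BOA, FKF1, COR27 and AT4G33980) were too low to be tested, with 0 to 24 reads a library. From summed levels, which follow the abundant genes, the means were 1.57 in Col-0, 2.46 in *ddcc* and 3.41 in the shoots, in the same order. The core genes gave 0.34 for the same difference in their main setting, with the shoots overlapping Col-0. The place of the shoots changed with another choice of core genes, as given above. The photosynthesis genes and the plastid share were also higher in *ddcc* than in Col-0, and their part in it was not tested.

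**Figure D4:**
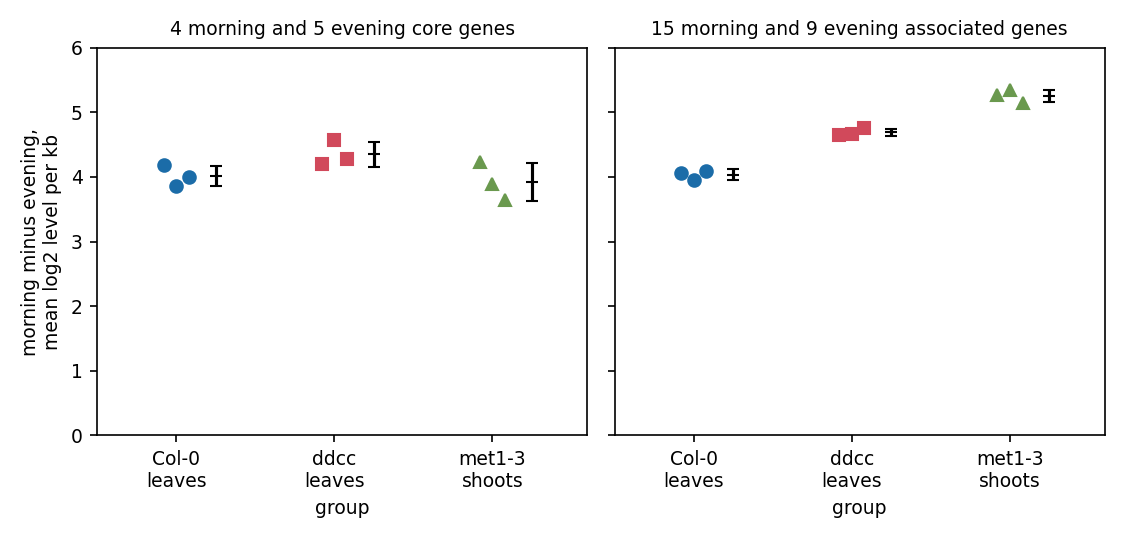
Mean log2 level per kb of morning genes minus that of evening genes in each library, with mean and SD beside the points, for core genes (left) and clock-associated genes (right). The core difference lies between 3.65 and 4.57 in all libraries, and the associated difference rises from Col-0 (mean 4.04) to *ddcc* (4.69) to the shoots labelled *met1-3* (5.26) without overlap.

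Genes that answer to light and darkness were set beside the clock. These 5 genes were chosen with earlier results of these data known, so their counts are descriptions and do not measure an excess over all genes. Of 3 genes raised in darkness, all 3 were higher in *ddcc* at an adjusted p under 0.05, where 13% of all tested genes were higher, and of 2 genes raised in light 1 was lower, where 8.32% were. Past the fold threshold as well were 2 higher and 1 lower, against 3.9% and 1.16%. DIN10 rose from 121, 194 and 205 normalised reads in Col-0 to 853, 758 and 412 in *ddcc* (log2 fold change 1.93, SE 0.27, limma adjusted p = 0.0012), and DIN1, also known from ageing leaves, from 219, 197 and 263 to 702, 630.0 and 357 (1.26, SE 0.23, adjusted p = 0.0041). ASN1, an asparagine synthetase, rose from 53.5, 31.3 and 23.6 to 171, 143 and 56.4 (1.68, SE 0.41, adjusted p = 0.018). In all 3 genes *ddcc* replicate 3 was the lowest of its group and nearest to Col-0. ELIP1, an early light-induced protein of the chloroplast, fell from 391, 885 and 1243 to 163, 189 and 259 (-1.91, SE 0.35, adjusted p = 0.0047). ELIP2, its relative, had 50.3, 88.7 and 130 normalised reads in Col-0 and 52.8, 30.4 and 61.9 in *ddcc*, overlapping (-0.84, SE 0.35, adjusted p = 0.12). The 4 that passed all had a larger fold change in size than ELF3, and genes of this kind also respond to sugar, stress and leaf age. ASN1 reached an adjusted p of 0.079 when *ddcc* replicate 1, *ddcc* replicate 2 or Col-0 replicate 2 was left out, at most, while DIN1, DIN10 and ELIP1 stayed under 0.05 in all alternatives. In the young shoots, ELIP1 and ELIP2 stood at 964 ± 200.2 and 525 ± 61.8 normalised reads of their own table and DIN1 at 31.1 ± 18.8.

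**Figure D5:**
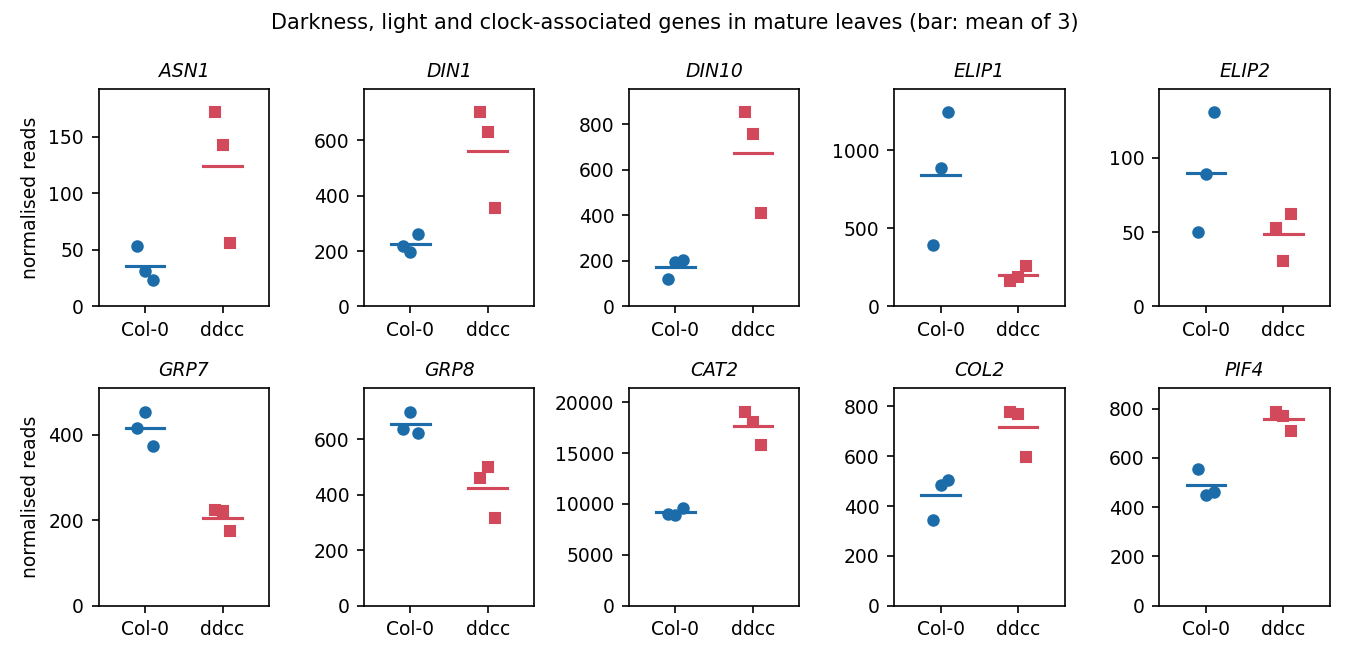
Normalised reads in each of the 3 Col-0 and 3 *ddcc* leaf libraries for 5 genes of darkness or light (top) and 5 clock-associated genes (bottom), with a bar at each mean and every axis from 0. ASN1, DIN1 and DIN10 lie higher and ELIP1 lower in *ddcc*, GRP7 and GRP8 lie lower, and CAT2, COL2 and PIF4 higher. The genes come from lists chosen with earlier results of these data known.

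The genes whose log2 values were most like those of clock genes over the 6 leaf libraries were searched among 11778 tested genes. Closest to the mean of LHY and CCA1 were RAV2 (Pearson r = 0.99), AT1G30290, AT1G68660, AT5G15550 and XIJ, and closest to GI were AT1G08410 (r = 0.99), AT5G15550, ADC1, XIJ and AT3G52610. AT5G15550 and XIJ stood on both lists. With 6 libraries of 2 genotypes that share their growth and scaling, such values are descriptions, and LHY and CCA1 varied little over these libraries.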

How the data were processed

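Total RNA-seq of 9 libraries was used, 3 each of Col-0 and *ddcc* mature leaves and young shoots labelled *met1-3*. Per the methods, the authors trimmed reads (Fastp in the methods, Trimmomatic in the submitters' processing notes), mapped them to TAIR10 with Hisat2, dropped those of mapping quality below 30 and used HTSeq-count for reads on each gene, and the processing notes name DESeq2. Versions, annotation and strand setting are not given in the sources used here. The deposited values are log2 of size-factor-normalised reads plus 1, from which whole reads were recovered for 100% of values (within 0.001 of a whole number). The 3 files labelled as *met1-3* mature leaves repeat the reads of Col-0 (22607 of 22607 shared genes) and were left out.

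Col-0 and *ddcc* were compared with limma 3.58.1 (R 4.3.3, lmFit, eBayes with trend) on the log2 values, with Benjamini-Hochberg adjustment over 17005 genes with the equivalent of 10 reads in at least 3 libraries and 15 reads in all, so fold changes include the pseudocount of 1 and understate low genes. The fit was tested on simulated data. Lists, members and phases were chosen with earlier results of these data known, and the motifs after the files were seen. Named genes are all members, every associated or light gene past either threshold, genes at 0 in a group and the 5 most alike. Levels per kb used exonic lengths of TAIR10.1. AT5G52660 and AT4G33980 of the associated list have no symbol in RefSeq. Tables were made with Python 3.11.15 and pandas 2.3.3.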

Additional observations from a re-analysis of the deposited data

How the results depend on the processing

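All 8 tested core genes kept a fold change below 0 under each of the 13 alternatives in which they were tested, and no core gene was called under any of them. For LUX the low filter, where used, favoured this sign. The number of core genes at an adjusted p under 0.05 (1, ELF3) was 3 with scaling to total nuclear reads (CCA1, GI and ELF3, where the median of all genes shifts to -0.10), 0 without a low filter, 2 with limma-voom and 0 to 3 when 1 library was left out. The total of called genes (861) was 554 to 958, and clock-associated calls (1, GRP7) 0 to 2, when 1 library was left out, with 0 without Col-0 replicate 2 and RVE7 and CAT2 in place of GRP7 without *ddcc* replicate 3. With the replicate number as a block, core genes at an adjusted p under 0.05 were 2 (GI and ELF3) and all calls 1017. Deviations from the group means had r = 0.21, 0.00085 and 0.035 between libraries of the same number, and -0.19 to 0.17 between those of unlike number. With 3 libraries a group these values cannot settle whether same-numbered samples were paired. The core difference with LHY and CCA1 against GI, TOC1, ELF4 and LUX was 5.67 in Col-0, 6.06 in *ddcc* and 6.37 in the shoots labelled *met1-3*. From summed levels of all the morning and evening core genes it was 4.34 in these shoots, against 3.93 in the main setting. The associated difference with a pseudocount of 0.1 was 4.44, 5.21 and 5.87 (*ddcc* minus Col-0 0.77), and from summed levels 1.57, 2.46 and 3.41 (0.90). The narrower gene choice applies to core genes only and was not run for the associated list. Depth limits PRR5, ELF4, LUX and PRR3, which had at most 29 reads in any leaf library. The causes of these shifts were not tested.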
